A study of Homo sapiens with 3 samples.

Results

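The 10 genes described here encode ligands, receptors, SMAD proteins and nuclear co-repressors of the TGF-beta pathway. They are TGFB1, TGFB2, TGFBR1, TGFBR2, SMAD2, SMAD3, SMAD4, SMAD7, SKI and SKIL. They were taken by gene symbol, with every probe set that the platform annotation assigns to one of these symbols alone. This gave 38 probe sets of 44988 with 1 symbol, for 10 genes of 18132, and 0 probe sets that name a member together with another gene.

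TGF-beta ligands are secreted in a latent form and, once released, bind the type II receptor TGFBR2, which recruits and phosphorylates the type I receptor TGFBR1. TGFBR1 phosphorylates SMAD2 and SMAD3, which join SMAD4, enter the nucleus and bind DNA at short motifs. SMAD7 blocks the receptor as part of a feedback loop, and SKI and SKIL (SnoN) hold SMAD complexes in a repressed state until they are degraded. In squamous epithelium the pathway is known for restraining growth, and in carcinoma cells also for invasion and matrix remodelling.

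The arrays hold total RNA of KYSE180, an established line of human oesophageal squamous cell carcinoma, with 1 array in each of 3 groups. One group is labelled control, with no agent named for that sample. Another received a vector for the long non-coding RNA HOTAIR, delivered with Polyfect. The last received siRNAs targeting HOTAIR, a mixture delivered with Lipofectamine2000 at 100 pmol. In both of these arms RNA was taken 48 h after transfection, and no time is given for the control sample. The series text describes a negative-control siRNA, yet the control sample's own labels do not say that it received one, so reagent and nucleic acid cannot be told apart from HOTAIR itself. The siRNA sample is titled KYSE180 while its source name speaks of a HOTAIR line. HOTAIR was not analysed here, so neither arm was checked by its target. With no replicates there is no error between cultures, no test and no p-value. The only spread available is the SD between probe sets of one gene, over 5982 genes and probe sets at or above the filter given below. It does not measure error between cultures or arrays. Pooled, it was 0.36 (log2) in vector minus control, 0.39 in siRNA minus control, and 0.21 between the arms. Its medians over genes were 0.16, 0.18 and 0.11.

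Values are log2 probe set signals. Probe sets whose mean over the 3 arrays reached the median of all such means, 5.28, are called bright enough to count, and a difference of 1 (log2), which is 2-fold, is the size used for counts. Of the 38 probe sets 24 reached that level and 14 did not. Of the 10 genes, 7 had at least 1 such probe set, and TGFB1, TGFB2 and SMAD7 had 0. Squamous markers were high on all arrays, with medians of 12.03 (control), 11.70 (vector) and 11.87 (siRNA) over 9 measured of 12, whereas 0 of 10 fibroblast and 0 of 6 endothelial markers reached the filter. Of the 7 leukocyte markers measured only CD68 reached it, and of the 5 glandular markers only CDX2. The control array differed from both others for many genes. In the vector arm 15.2% of the 10917 genes kept lay 2-fold or more above control and 2.05% as far below it. In the siRNA arm these shares were 14.9% and 1.85%, and between the arms 1.73% and 1.85%. Both comparisons with control share the control array. Over all genes kept the median difference was -0.18 in the vector arm and -0.17 in the siRNA arm. Cyclic loess moved these medians to -0.03 and 0.02, so small differences near 0 have no fixed direction. Interferon-stimulated genes moved with the vector array. The 10 listed were chosen because earlier results of these data had them moving with that array, so their count there is no finding. All 10 lay 2-fold or more above control there, with a median of 4.19. In the siRNA arm 3 of the 10 did, IFI44 (2.51), RIGI (1.81) and DDX60 (1.79), with a median of 0.40. Their part in the results below was not tested. In RNA from whole cultures, fewer cells that carry a transcript and less of it per cell cannot be told apart.

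The promoters of SKIL, TGFBR1 and SMAD7 are shown because SKIL and SMAD7 are known feedback targets of SMAD complexes, and SKIL and TGFBR1 were the members counted as 2-fold higher than control in both arms. Each is the 250 bases before the gene's start in RefSeq (GRCh38.p14), 5′ to 3′ on the gene's strand, at chr3:170357465-170357714 (plus) for SKIL, chr9:99104863-99105112 (plus) for TGFBR1 and chr18:48950966-48951215 (minus) for SMAD7. Capitals mark the SMAD-binding letters CAGAC, or GTCTG where they lie on the other strand.
SKIL: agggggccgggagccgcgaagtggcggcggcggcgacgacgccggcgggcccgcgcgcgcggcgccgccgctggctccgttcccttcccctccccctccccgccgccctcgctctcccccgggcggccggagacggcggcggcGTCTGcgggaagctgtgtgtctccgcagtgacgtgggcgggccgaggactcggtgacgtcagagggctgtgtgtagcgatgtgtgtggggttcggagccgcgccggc
TGFBR1: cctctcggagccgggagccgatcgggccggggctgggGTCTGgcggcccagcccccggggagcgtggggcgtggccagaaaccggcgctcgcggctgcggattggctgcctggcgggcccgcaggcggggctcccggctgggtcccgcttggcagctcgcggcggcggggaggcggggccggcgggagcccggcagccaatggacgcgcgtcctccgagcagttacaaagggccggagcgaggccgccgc
SMAD7: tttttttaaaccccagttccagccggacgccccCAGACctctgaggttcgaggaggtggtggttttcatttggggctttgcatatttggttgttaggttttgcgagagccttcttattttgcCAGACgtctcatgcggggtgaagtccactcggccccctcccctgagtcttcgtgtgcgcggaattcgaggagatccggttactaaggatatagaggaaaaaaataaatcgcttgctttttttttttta

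CAGAC matched once in the SKIL window, once in that of TGFBR1, and 2 times each in those of SMAD7 and TGFB2. It matched 0 times in the windows of TGFB1, TGFBR2, SMAD2, SMAD3 and SMAD4, and SKI had no entry in the table. On either strand it is found in 38.0% of 35116 windows of this length. The palindrome GTCTAGAC, in 0.182% of them, and the CAGA box AGCCAGACA, in 0.231%, matched in 0 of the 9 member windows. The GC content was 78.4% for SKIL, 79.6% for TGFBR1 and 48.0% for SMAD7, against a median of 58.0% over all windows. A match is a description of these letters, not of a bound site.

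**Figure D1:**
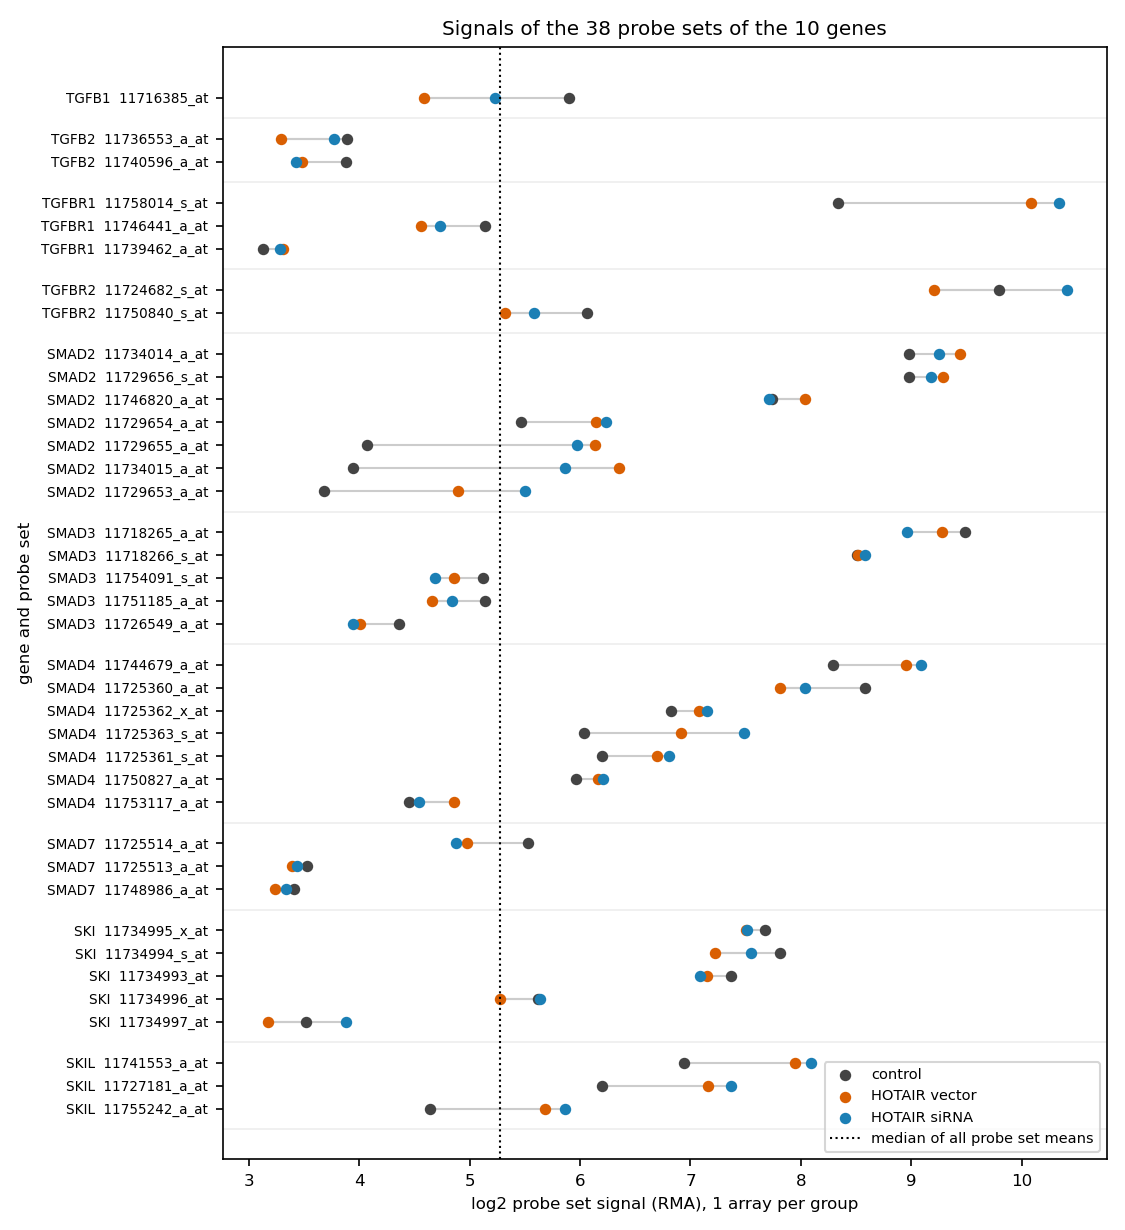
Log2 signal of each of the 38 probe sets (rows, by gene) on the control, HOTAIR vector and HOTAIR siRNA arrays, 1 array per group. The dotted line is the median of all probe set means (5.28). The signals of SKIL were lowest in control on all 3 of its probe sets, whereas those of TGFBR1, SMAD2 and SMAD4 depended on the probe set. Positions of different probe sets are not comparable as levels of RNA.

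The ligand genes had low signals. TGFB1, which encodes the most widely expressed TGF-beta, was measured on 1 probe set at 5.90 in control, 4.59 in the vector arm and 5.23 in the siRNA arm. The control was highest and the vector array lowest, with a difference of -1.31 (2.48-fold lower) for vector minus control. The siRNA arm differed from control by -0.67 and the arms from each other by -0.64, both short of 2-fold. The mean of this probe set, 5.24, lay just under the filter, so TGFB1 is in none of the counts of genes kept. Under cyclic loess the vector difference was -0.99, which misses 2-fold.

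TGFB2, encoding another ligand isoform, had 2 dim probe sets. The brighter read 3.89 in control, 3.29 in the vector arm and 3.78 in the siRNA arm, and the other 3.88, 3.48 and 3.42. Apart from the brighter one in siRNA cells (3.78), the signals in both arms lay below the lower quartile of their arrays, 3.58 for vector and 3.62 for siRNA, so the order of the arms is not read. Both probe sets were highest in control, by 0.60 and 0.40 over vector cells, and neither reached 2-fold.

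The receptor genes differed from each other and between their own probe sets. TGFBR1, the type I receptor kinase, had a bright probe set, 11758014_s_at, at 8.34 in control, 10.09 in the vector arm and 10.34 in the siRNA arm. Both arms were above control, by 1.75 (3.36-fold) in vector and 4.01-fold in siRNA cells, with the arms at -0.25 from each other. The next probe set of the gene, 11746441_a_at, read 5.14, 4.56 and 4.74, which puts control highest, by 0.58 over vector and 0.40 over siRNA cells. The dimmest, 11739462_a_at, read 3.13, 3.31 and 3.29, all under the lower quartile. The higher TGFBR1 signal thus rests on 1 probe set, whose name ends in _s_at. That ending marks probes shared by several transcripts, of the same gene or of others, and whether those of TGFBR1 reach another gene was not tested.

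TGFBR2, the type II receptor that binds the ligand, had 2 probe sets, both ending in _s_at. On the brighter, 11724682_s_at, signals were 9.80 in control, 9.20 in the vector arm and 10.41 in the siRNA arm. The control lay between the arms, 0.60 above vector and 0.61 below siRNA cells. The arms therefore differed by -1.21 for vector minus siRNA, or 2.31-fold, the 1 difference past 2-fold between the arms among all 38 probe sets. The other, 11750840_s_at, read 6.06, 5.32 and 5.58, with control highest. There vector was also below siRNA cells, by 0.27, but siRNA cells were below control by 0.48. Both probe sets were thus lowest in vector cells and disagreed on siRNA against control, and their mean for vector minus siRNA was -0.74, short of 2-fold.

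**Figure D2:**
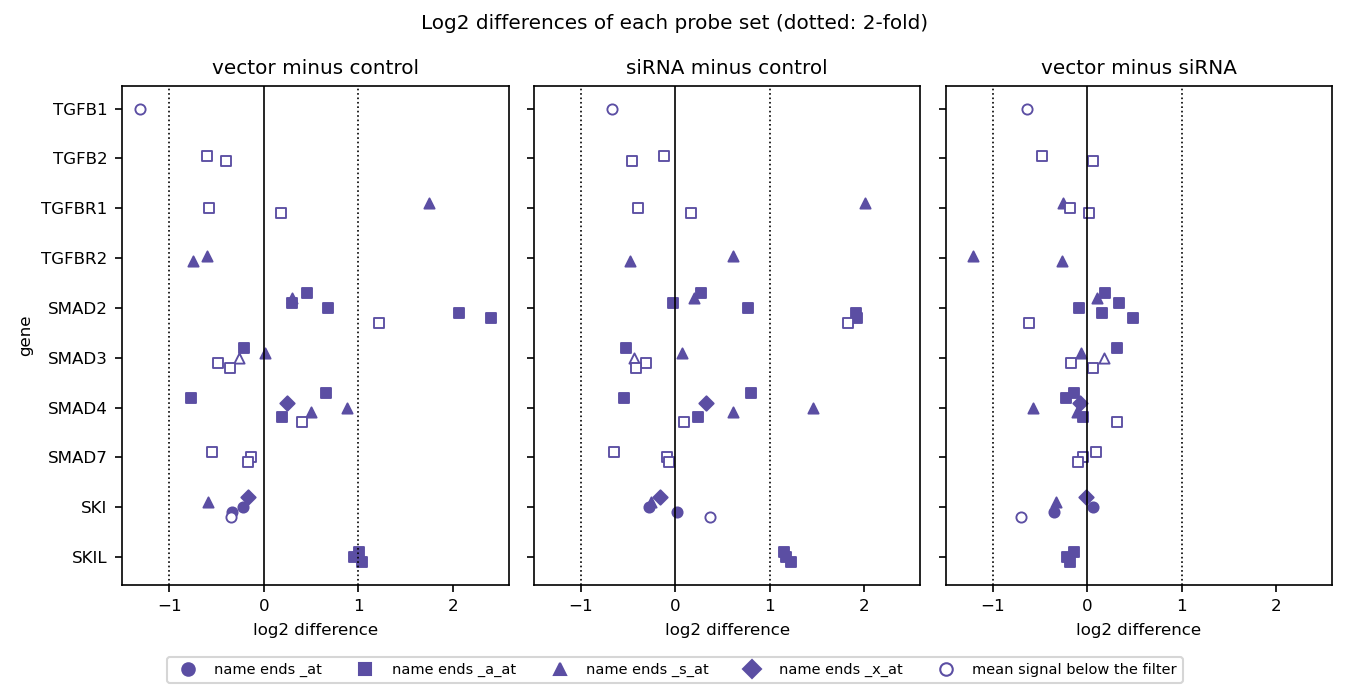
Log2 difference of every probe set in each of the 3 comparisons (panels), by gene, with marker shape for the ending of the probe set name and open markers for means under the filter. Dotted lines mark 2-fold. Points of SMAD2 spread from 0.30 to 2.41 in vector minus control, while those of SKIL lie between 0.96 and 1.04, and in vector minus siRNA only a TGFBR2 probe set passes 2-fold.

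Among the SMADs that receptors phosphorylate, SMAD2 was above control on most probe sets. The brightest SMAD3 probe set was below control in siRNA cells, while the next lay close to control. On the brightest probe set of each gene the differences were short of 2-fold. For SMAD3 in the vector arm no direction is given, since its -0.21 is close to the median of all genes (-0.18) and centring takes it to -0.02. SMAD2 had 7 probe sets, and all 7 were above control in vector cells and 6 of 7 in siRNA cells. The brightest, 11734014_a_at, read 8.98 in control, 9.44 in the vector arm and 9.25 in the siRNA arm, differences of 0.46 and 0.27. The next, 11729656_s_at, read 8.98, 9.28 and 9.18, and 11746820_a_at read 7.74, 8.04 and 7.71. On these 3 bright probe sets no difference reached 2-fold. The largest differences were on probe sets that were dim in control cells. For 11734015_a_at the signals were 3.95, 6.35 and 5.87, which is 5.30-fold higher in vector and 3.79-fold in siRNA cells. For 11729655_a_at they were 4.07, 6.13 and 5.98, or 4.18-fold and 3.75-fold. Likewise 11729653_a_at, under the filter, read 3.68, 4.89 and 5.50. The remaining 11729654_a_at read 5.47, 6.15 and 6.23, with differences of 0.68 and 0.77.

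The probe sets of SMAD2 thus agreed in direction for vector minus control and spanned 2.10 (log2) in size. Of 2040 genes with 5 or more probe sets, 6.86% had a span at least as wide, and the median span was 0.68. Of 554 genes with 7 or more, as SMAD2 has, 8.84% did, and the median span was 0.82. The gene is counted by its brightest probe set, which did not reach 2-fold in either arm. The mean over its 7 probe sets was 1.06 for vector minus control and 0.98 for siRNA minus control. Which transcripts each probe set detects was not tested.

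SMAD3, the partner of SMAD2, had 5 probe sets, of which 4 were below control in both arms. The brightest, 11718265_a_at, read 9.49 in control, 9.28 in the vector arm and 8.96 in the siRNA arm, so control was highest and siRNA lowest, with differences of -0.21 and -0.53. On 11718266_s_at the arrays were close, at 8.51, 8.52 and 8.58. The other 3 were below the filter, with differences from -0.26 to -0.48 in vector and from -0.31 to -0.44 in siRNA cells. No SMAD3 probe set reached 2-fold in any comparison. The span over its probe sets was 0.49 for vector minus control, below the median of 0.68 for genes with 5 or more.

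SMAD4, the common partner, had 7 probe sets that disagreed in sign. The brightest, 11744679_a_at, read 8.29 in control, 8.95 in the vector arm and 9.09 in the siRNA arm, differences of 0.66 and 0.80. On 11725360_a_at the order was turned, with 8.58, 7.81 and 8.04, so that control was highest by 0.77 and 0.54. The probe sets 11725361_s_at and 11725362_x_at carry the same source sequence in the annotation as 11725360_a_at and yet had control lowest. They read 6.20, 6.70 and 6.81, and 6.83, 7.08 and 7.15. The only SMAD4 difference past 2-fold was on 11725363_s_at, at 6.03, 6.92 and 7.48, which is 2.73-fold higher in siRNA and 1.84-fold in vector cells than in control. The other 2 were above control by 0.09 to 0.40 in both arms. In all, 6 of 7 SMAD4 probe sets were above control in each arm. Its span was 1.65 in the vector arm and 1.99 in the siRNA arm. Among 554 genes with 7 or more probe sets, 15.9% and 10.8% had spans at least as wide, and among 2040 genes with 5 or more, 12.3% and 7.70%.

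**Figure D3:**
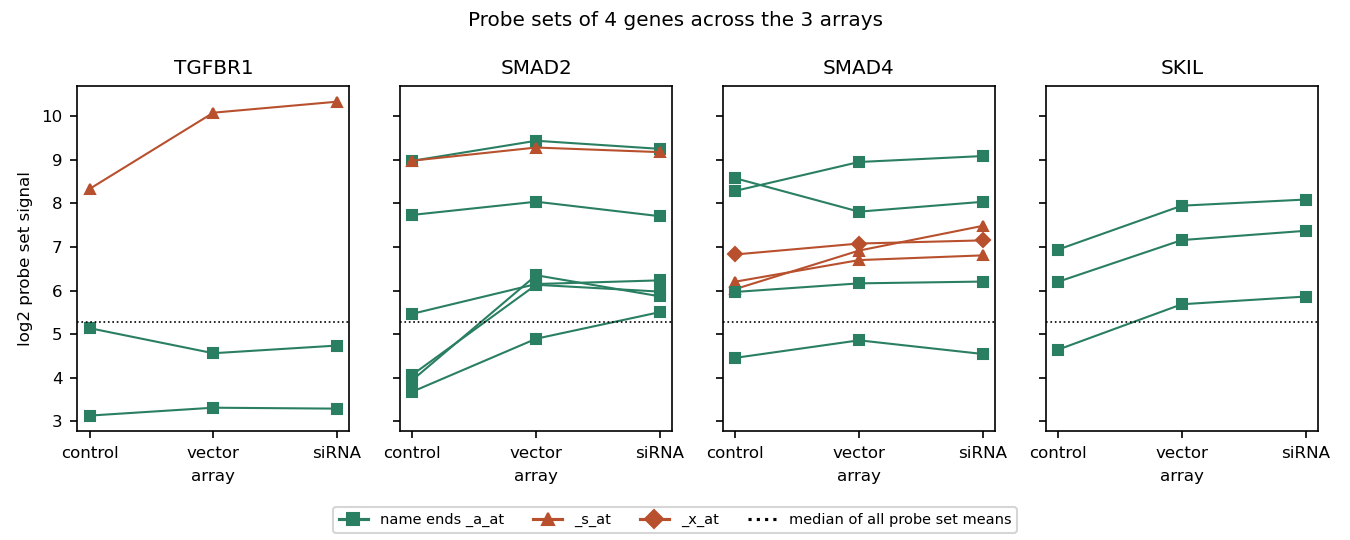
Log2 signals of each probe set (lines) of TGFBR1, SMAD2, SMAD4 and SKIL on the control, vector and siRNA arrays. The dotted line is the median of all probe set means (5.28), and marker shapes give the ending of the name. SKIL lines run in parallel, 1 bright TGFBR1 line climbs from 8.34 to 10.34, and the SMAD2 lines that start lowest climb more than the 3 that start highest.

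The inhibitors of the pathway fell into a gene with higher signal in both arms, SKIL, and others close to or below control. SMAD7, the inhibitory SMAD that directs receptor degradation, had 3 probe sets under the filter. The brightest, 11725514_a_at, read 5.53 in control, 4.98 in the vector arm and 4.88 in the siRNA arm, so control was highest by 0.55 and 0.65. The others read 3.52, 3.39 and 3.43, and 3.41, 3.24 and 3.34, all below the lower quartile of each array.

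SKI, a co-repressor that binds SMAD complexes, had 5 probe sets, all below control in vector cells by 0.17 to 0.59. The brightest, 11734995_x_at, read 7.67 in control, 7.51 in the vector arm and 7.51 in the siRNA arm. Its ending marks probes that may hybridise with other genes. The _s_at probe set 11734994_s_at read 7.81, 7.22 and 7.55, and 11734993_at read 7.37, 7.15 and 7.09. For siRNA minus control the 5 probe sets ran from -0.27 to 0.36, and no SKI probe set reached 2-fold in any comparison. Centring differences on the median of all genes put the brightest at 0.02 for vector minus control, so no direction is given for SKI.

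SKIL, encoding SnoN, the relative of SKI, had 3 probe sets in close agreement, all with names ending in _a_at, which marks probes shared by transcripts of 1 gene. The brightest, 11741553_a_at, read 6.94 in control, 7.95 in the vector arm and 8.09 in the siRNA arm. Next, 11727181_a_at read 6.20, 7.16 and 7.37. The dimmest, 11755242_a_at, read 4.64, 5.68 and 5.86. Control was lowest and siRNA highest on each of the 3. For vector minus control the differences were 1.01, 0.96 and 1.04, so 2 of 3 passed 2-fold by a small margin. For siRNA minus control they were 1.15, 1.17 and 1.22, or 2.22-fold to 2.33-fold. Between the arms the differences were -0.14, -0.21 and -0.18, of 1 sign and far from 2-fold, beside an SD between probe sets of a gene of 0.21 (pooled) and 0.11 (median over genes). After repeated quantile normalization the brightest was at 0.81 for vector minus control and 1.01 for siRNA minus control. Genes 2-fold or more above control in both arms numbered 1387, or 12.7% of those kept, and SKIL and TGFBR1 are among them.

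Counted by brightest probe set, 2 of the 7 genes kept, TGFBR1 and SKIL, lay 2-fold or more above control in the vector arm and 0 below, against 15.2% and 2.05% of all genes kept. The same genes, TGFBR1 and SKIL, were 2-fold higher in siRNA cells, where 14.9% of genes were, and 0 were lower, against 1.85%. Between the arms 1 of 7, TGFBR2, was lower in vector cells and 0 were higher, against 1.85% and 1.73%. Counted by probe set, 5 of the 24 that reached the filter (20.8%) passed 2-fold upward in the vector arm, against 16.3% of all such probe sets, and 0 downward, against 1.70%. In the siRNA arm 7 of 24 (29.2%) did, against 15.8%, and 0 downward, against 1.91%. Between the arms 0 of 24 were higher in vector cells and 1 lower, against 1.47% and 1.43%. Of those passing upward, 3 of the 5 in the vector arm and 3 of the 7 in the siRNA arm had control signals under the filter (SMAD2 11734015_a_at and 11729655_a_at, SKIL 11755242_a_at). They were counted only because the arms are high, while TGFB1, above the filter in control, was left out because the arms are low. The shares after the filter are therefore no support for a difference of these genes. Over all 38 probe sets, with no filter, 6 passed upward and 1 downward in the vector arm, against 10.2% and 1.10% of all probe sets with 1 symbol. In the siRNA arm 8 and 0 did, against 9.53% and 1.11%, and between the arms 0 and 1, against 1.24% and 1.09%. In the siRNA arm 3 of the 7 probe sets are those of SKIL and 2 those of SMAD2, and probe sets of a gene are not independent.

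Counts by name ending, and the shares beside them, are of probe sets that reached the filter. Of the 8 member probe sets ending in _s_at, 1 passed 2-fold upward in the vector arm, against 22.9% of all such _s_at probe sets. In siRNA cells 2 of 8 were, against 23.8%. Of the 2 ending in _x_at 0 were, against 10.5% in vector and 9.89% in siRNA cells. Of the 12 ending in _a_at 4 were in vector cells, against 15.0%, and 5 in siRNA cells, against 13.8%. In each arm 3 of these _a_at probe sets had control signals under the filter, as named above. They were counted only because the arms are high, so these shares are no support for a difference by name ending. Of the 2 ending in plain _at 0 were, against 20.2% in vector and 20.1% in siRNA cells. Without _x_at and _s_at probe sets TGFBR2 has none left, TGFBR1 is represented by 11746441_a_at at -0.58 and -0.40 and drops below the filter, and SKIL is as before.

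The 6 lists of other pathway genes hold 138 genes, of which 130 were measured and 103 kept. Of the 103, 14 lay 2-fold or more above control in the vector arm and 7 below, against 15.2% and 2.05% of all genes kept, so the higher count is near the background. In the siRNA arm 13 lay above and 0 below, against 14.9% and 1.85%, also near it. The split depended on the scaling, with 11 above and 12 below (vector) and 12 and 3 (siRNA) after repeated quantile normalization, and 16 and 3 (vector) and 18 and 0 (siRNA) after centring. The shares of all genes kept moved too. After quantile normalization they were 13.2% above and 4.74% below (vector) and 13.5% and 3.74% (siRNA). After centring they were 18.1% and 0.96% (vector) and 17.9% and 0.66% (siRNA). In the vector arm the lower count was above its share under each of these scalings, which was not tested. Between the arms 0 were higher and 7 lower in vector cells, against 1.73% and 1.85% of all genes kept. Without the filter 1 of 130 was higher, TGFBI, by more than any of the 7 was lower. The lists' joint median was -0.19 in the vector arm, beside -0.18 for all genes, and -0.01 in the siRNA arm, beside -0.17.

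The shares of all genes kept given above, 15.2% higher and 2.05% lower in the vector arm and 14.9% and 1.85% in the siRNA arm, are the background for each list, and nothing particular to a list is read from its count. Of 15 ligand and latency genes kept, 3 were lower and 2 higher in the vector arm than in control. The activin antagonist gene FST read 9.74 in control, 8.38 in the vector arm and 9.63 in the siRNA arm, and its 3 probe sets were lower in vector cells by 1.34 to 1.83. LTBP1, which tethers latent TGF-beta in the matrix, read 6.78, 5.69 and 7.64, so vector was lowest and siRNA highest, with a difference of -1.95 between the arms (-1.65 as the mean of 5 probe sets, which gave -0.98 for vector minus control). INHBB, an activin subunit gene, read 5.77, 4.47 and 6.49 on 1 probe set. The integrin genes ITGAV and ITGB8, whose products release latent TGF-beta, were higher than control in both arms. ITGAV was at 1.53 in vector and 2.20 in siRNA cells, and ITGB8 at 2.18 and 1.79, although ITGAV was at 0.98 in vector and ITGB8 at 0.83 in siRNA cells as means over probe sets.

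Of 10 other receptors kept, 2 were higher in each arm and 0 lower, a share near the background. BMPR2, a BMP type II receptor, read 6.14 in control, 8.13 in the vector arm and 8.21 in the siRNA arm, and the co-receptor TGFBR3 was at 1.09 and 1.43. Their probe sets disagreed, from 0.07 upward for BMPR2 and from -0.48 to 1.09 for TGFBR3 in vector cells. ACVR1C, a type I receptor gene under the filter and named after its values were seen, read 3.80 in control, 5.70 in the vector arm and 5.75 in the siRNA arm, but its 3 probe sets ran from -0.07 to 1.89 in vector cells. Of 12 other SMADs and adaptors kept, 5 were higher in each arm and 0 lower. SMAD5, which BMP receptors phosphorylate, was at 2.55 and 2.53, and all 5 of its probe sets were above control, by at least 0.46 in vector and 0.28 in siRNA cells. SNX6 (2.58 and 2.15), ZFYVE16 (2.94 and 2.30) and APPL1 (1.54 and 1.49), all endosomal proteins, were also higher, though as means over probe sets ZFYVE16 was at 0.97 and 0.88, and APPL1 at 0.84 in siRNA cells.

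Of 22 genes for turnover of receptors, SMADs, SKI and SKIL, 3 were higher in vector cells, 2 in siRNA cells and 0 lower, again near the background. The ubiquitin ligase gene WWP1 was at 1.94 and 1.78 with 3 probe sets that agreed. USP15, a deubiquitinase that acts on receptors and SMADs, was at 3.41 and 2.58 on its brightest probe set, but its 7 probe sets ran from -0.38 to 3.41 in vector cells. TRIM33, a ligase that acts on SMAD4, was at 1.04 and 0.90, or 1.24 and 1.12 as the mean over probe sets. Of 23 co-activators and co-repressors kept, 2 were higher and 1 lower in vector cells. The acetyltransferase gene KAT2B was at 2.07 and 1.73, or 0.63 and 0.56 as the mean. FOXO3 was at 1.11 and 0.66, MECOM at 0.45 and 1.35, and RUNX2 at -1.12 and 0.68, and RUNX2 differed by -1.80 between the arms. As means over probe sets FOXO3 was at 0.70 in vector, MECOM at 0.84 in siRNA and RUNX2 at -0.84 in vector cells, all short of 2-fold.

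Genes reported as TGF-beta targets differed in both directions. TGFBI, a secreted matrix protein gene, was under the filter and is named after its values were seen. It read 4.74 in control, 6.40 in the vector arm and 3.97 in the siRNA arm, with the vector array above the other 2. Its 4 probe sets were higher by 1.28 to 3.26 for vector minus control and by 1.43 to 3.75 between the arms. Of the 24 target genes kept, 0 were at least 2-fold higher in any comparison, 3 were lower in the vector arm than in control, and 3 lower there than in the siRNA arm. PMEPA1, a target that itself restrains SMAD signalling, read 8.63 in control, 5.99 in the vector arm and 7.63 in the siRNA arm. The control was highest and vector lowest, at -2.63 against control in the vector arm, -0.99 in the siRNA arm and -1.64 between the arms. Its 3 probe sets ran from -3.14 to -2.63 for vector minus control and from -2.01 to -1.62 between the arms. For siRNA minus control they ran from -1.14 to -0.99, with a mean of -1.09, just past 2-fold. CCN1, a matricellular protein gene, read 8.62, 7.45 and 8.15, and was lower in vector cells by 1.17. The basement membrane collagen gene COL4A1 read 8.69, 7.55 and 9.05, although its 3 probe sets ran from -1.14 to 0.10 in vector minus control. CDH2, encoding N-cadherin, read 7.16, 6.40 and 7.80, lowest in vector and highest in siRNA cells. The list's median was -0.28 in the vector arm and -0.41 in the siRNA arm, beside -0.18 and -0.17 for all genes, and -0.04 between the arms, beside 0.01.

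**Figure D4:**
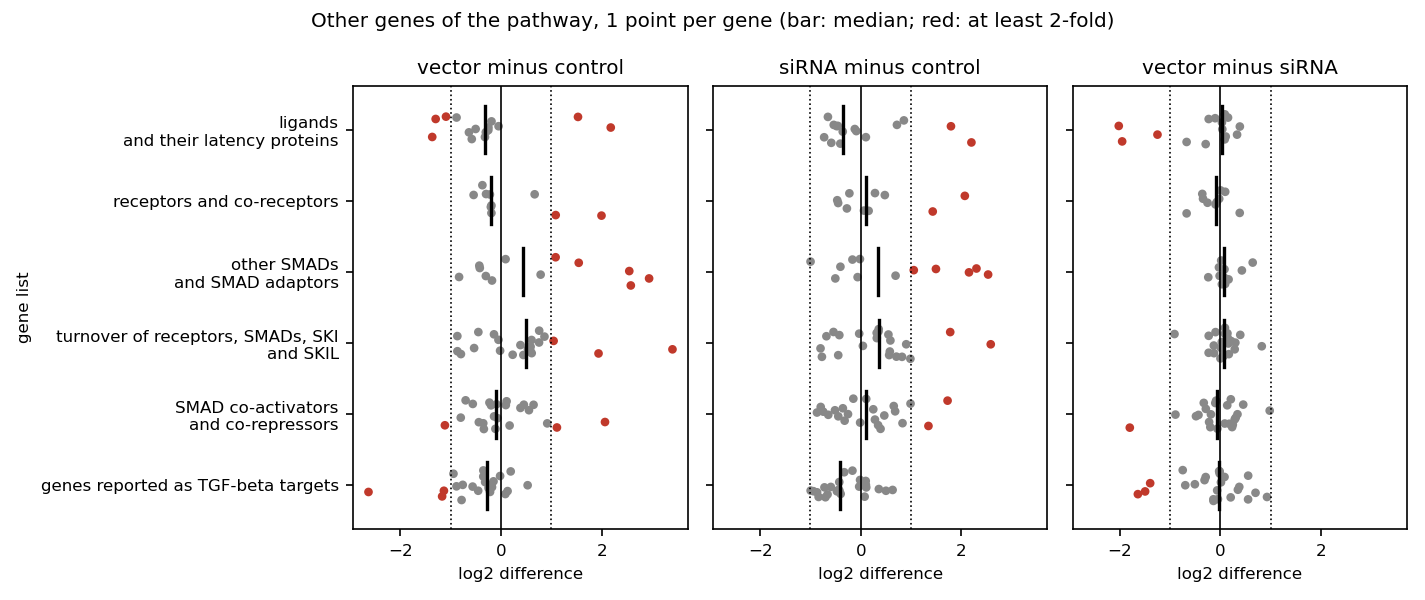
Log2 difference of each gene kept (points) in 6 lists of other pathway genes, for the 3 comparisons (panels), with bars at list medians and red points at least 2-fold apart. In vector minus siRNA all 7 red points lie on the lower side, and in siRNA minus control all 13 lie on the higher side.

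Across the 24 member probe sets at or above the filter, the control array was lowest on 15, in the middle on 3 and highest on 6. Over all 22734 such probe sets control was lowest on 38.2%, in the middle on 10.9% and highest on 50.9%. The 3 member probe sets with control in the middle were 1 each of TGFBR2, SMAD2 and SKI, and of these only that of TGFBR2 was at least 1.5-fold from both arms. The siRNA array was highest on 13 of the 24, against 21.9% of all such probe sets, and of the 13, 5 are probe sets of SMAD4 and 3 of SKIL. Some of the 24 reached the filter only because the arms are high, as given above, so these shares are no support either. Over all 38 member probe sets, with no filter, control was lowest on 18, in the middle on 4 and highest on 16. There the siRNA array was highest on 15. Shares over all probe sets were not taken without the filter, and those above are no background for these counts. Nothing is read from them.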

How the data were processed

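Total RNA was labelled with biotin by a 3' IVT kit, per the labels' protocols, and read on 1 array per group. The deposited values are log2 signals per probe set. RMA is the tool in the submitters' processing notes, and its version, settings and chip definition were not stated. The log2 scale was read from the range of the values. RMA compresses differences of dim probe sets. Of 49293 probe sets, 44988 had 1 symbol in the platform annotation and 1832 several.

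The genes and lists were chosen with earlier results of these data known. Each gene took the values of its brightest probe set, by mean of the 3 arrays, and was kept where that mean reached the median of all such means. Named genes outside the 10 were those past 2-fold in a list, at most 4 per list and comparison. List genes without a probe set of 1 symbol were not analysed here. Differences were counted at 2-fold, with no test. The counting was tested on simulated arrays. Alternatives were fold thresholds, filters, probe set rules, repeated quantile normalization, cyclic loess (limma 3.58.1, R 4.3.3, span 0.4, 3 cycles) and centring. Python 3.11.15, numpy 2.4.6, pandas 2.3.3 and matplotlib 3.10.9 were used.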

Additional observations from a re-analysis of the deposited data

How the results depend on the processing

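Counts of the 10 genes depended on the threshold and on the probe set taken. Values follow the order vector minus control, siRNA minus control and vector minus siRNA. At 1.5-fold 42.3%, 40.8% and 9.68% of all genes kept passed. By direction that was 22.9% higher and 19.4% lower, 22.8% and 18.0%, and 4.74% and 4.95%. The shares in this section are of genes, and none was taken for probe sets at these settings, so its probe set counts have no background. Member probe sets past 1.5-fold numbered 13 (9 higher, 4 lower) and 11 (all higher) in the first pair of comparisons. Member genes numbered 4 (3 higher, 1 lower) and 4 (all higher) there. Other pathway genes numbered 43 (24 higher, 19 lower), 44 (26 and 18) and 18 (5 and 13). At 3-fold, which 8.45%, 7.29% and 1.23% of all genes kept passed, there were 3, 3 and 0 member probe sets and 1, 1 and 0 member genes. Other pathway genes then numbered 9 in the first and 4 in the last comparison. With a filter at the 75th percentile 2 and 2 member probe sets and 13 (first) and 2 (last) other pathway genes were counted, of 12 and 61 left. Of all genes left, 17.6%, 18.0% and 2.39% passed 2-fold. Without _x_at and _s_at probe sets the member genes were 1, 1 and 0, and the last comparison had 0 member probe sets. The shares of all genes kept were then 16.8%, 16.2% and 3.32%. With the mean over probe sets 1 member gene in siRNA minus control, 0 between the arms and 8 other pathway genes in siRNA minus control were counted, and with the median 0, 1 and 0 member genes. Of all genes kept, 14.4%, 12.8% and 2.53% passed with the mean, and 15.3%, 14.1% and 2.66% with the median. Repeated quantile normalization left 1 member gene in vector minus control, where 18.0% of all genes kept passed. TGFBR1 turned sign, to -0.58 in vector and -0.40 in siRNA cells, without _x_at and _s_at probe sets and with the median signal of its 3 probe sets on each array, as both take the values of 11746441_a_at. The mean of its 3 probe sets gave 0.45 and 0.59, and the median of their 3 differences 0.18 and 0.16. SKIL was past 2-fold in siRNA cells under all 7 settings run and in vector cells under 5 of 7. These include the main setting and the run without _x_at and _s_at probe sets. That run cannot move SKIL, whose probe sets all end in _a_at. No paired analysis was possible because each group has 1 array, and no replicate could be left out. With 1 array per group, precision is limited by the number of arrays.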
